A study of Mus musculus with 7 samples.

Results

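Genes for surface receptors, most of them known to restrain T cell signalling, were followed in single thymocytes of adult mice. The 7 genes were Cd5, Cd6, Pdcd1, Cd160, Btla, Lag3 and Izumo1r, chosen by symbol among the 32286 features of the matrices, and were measured in 71081 thymocyte barcodes of the 90016 barcodes in the files. A thymocyte barcode had at least 200 detected genes, at most 15% mitochondrial counts and at most 1 unique molecular identifier (UMI, a tag that marks 1 transcript molecule) of Cd79a, Cd79b and Ms4a1 together.

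Double-negative (DN) thymocytes lack CD4 and CD8. They pass from DN3a, before selection on an antigen receptor, to DN3b and DN4 after it. WT C57BL/6 mice of 6 to 8 weeks gave 5 libraries, made from pooled thymi after removal of CD4+ and CD8+ cells. These were DN3a (6818 thymocyte barcodes), DN3b γδ− (18515) and DN4 γδ− (12942), which lacked a surface γδ T cell receptor (TCR), and DN3b γδ+ (12361) and DN4 γδ+ (8703), which carried one. Mice of genotype Lat-/-TCRd-H2BEGFP, on the C57BL/6 strain, gave DN3 γδ− (6468) and DN3 γδint (5274), sorted for intermediate γδ TCR staining. Their age is not given in the labels. They lacked LAT, the adaptor that links the TCR to downstream signalling, and carried a fluorescent reporter in the gene for the TCR δ constant region. Each library also received 500 splenic B cells. CD5 antibody was in the stain, but the gates described used other markers. In the WT sort, staining for CD71, the transferrin receptor, separated DN3b γδ− (CD71+) from DN3a, and DN4 γδ− was CD71+ too. The Lat-KO thymocytes were sorted without the bead depletion, with no CD71 gate described, and carried the reporter. LAT loss, reporter, preparation and gate therefore cannot be told apart when the Lat-KO libraries are compared with WT. Each group was 1 library from pooled animals, so no comparison was tested, and the 95% intervals given below cover counting error only.

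CD5 and CD6 are scavenger-receptor family proteins of T cells whose phosphorylated tails gather enzymes and adaptors that tune TCR signals. CD5 levels are widely used as a readout of the strength of the TCR signals a thymocyte has received. PD-1 (Pdcd1) and BTLA recruit phosphatases through tyrosine motifs in their tails. BTLA and CD160 share a ligand, HVEM (Tnfrsf14). LAG-3 binds MHC class II molecules. Izumo1r encodes folate receptor 4, also called Juno, a membrane protein tied to the surface by a lipid anchor. It is known in T cells from regulatory and anergic CD4+ cells and in eggs as the receptor for the sperm protein IZUMO1. Transcripts do not show how much protein reached the surface.

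The Lat transcript was at 357 to 648 counts per 1000000 UMIs (CPM) in the 5 WT libraries and at 4.83 and 0.899 CPM in the Lat-KO libraries γδ− and γδint. Median UMIs per thymocyte barcode ranged from 5738 to 18506, so shares of barcodes are given after thinning each barcode to 4000 UMIs. Lat-KO DN3 γδint stood apart in its ribosomal-protein UMIs, 18.1% of the total against 27.6% to 33.7% in the other 6 libraries, and its B-like barcodes, those dominated by B cell genes, were low too (19.7%). Pairs of libraries shared between 7 and 68 barcode sequences, at most 0.66% of the smaller library. The limit on B cell UMIs removed 4.96% to 19.9% of the quality-filtered barcodes, the most in Lat-KO DN3 γδ−. Cd79b, 1 of the B cell genes, was at 8.65 to 49.3 CPM in thymocyte barcodes, its source there was not tested, and a T cell marker rule served as an alternative. No doublet caller was run. The 5 NK cell genes summed to 7.45 to 343 CPM, highest in WT DN4 γδ+, and were mostly Nkg7, which γδ T cells also use, while the defining gene Ncr1 was at 0 in every library. The 5 genes of the plasmacytoid list summed to 266 to 1062 CPM, highest in WT DN4 γδ+, where Ccr9, also a thymocyte gene, made up 894 CPM, and its defining gene Siglech was at most 0.0793 CPM. The myeloid list summed to 3.62 to 50.7 CPM. The 4 haemoglobin genes of the erythroid list summed to 169.6 CPM in WT DN4 γδ− and to at most 35.7 CPM elsewhere. Trac, the αβ TCR constant region gene, was at 39.3 and 77.1 CPM in the WT DN3b γδ+ and DN4 γδ+ libraries and at most 15.9 CPM elsewhere. The 5 genes of the mature αβ T cell list, Trac and Ctla4 among them, summed to 29.1 to 96.1 CPM, highest in Lat-KO γδ−, where Ctla4 made up 95.2 CPM. The part of these cells in the results was not tested.

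Cd5 and Cd6 are neighbours on chromosome 19. In GENCODE vM21 on GRCm38, the assembly also named mm10, Cd5 lay at chr19:10717116-10739002 and Cd6 at chr19:10789341-10830058, both on the minus strand, with 50338 bases and no protein-coding gene between them. The other 5 genes were on other chromosomes. Pdcd1 lay at chr1:94038305-94052553 (minus strand), Cd160 at chr3:96798763-96829351 (minus), Btla at chr16:45224315-45257670 (plus), Lag3 at chr6:124904361-124911705 (minus) and Izumo1r at chr9:14885814-14903949 (minus). Cd160 overlapped Pdzk1 on the opposite strand, and Pdzk1 was at most 0.205 CPM in any library. RefSeq promoter windows on GRCm38.p6, from 250 bases before to 50 after a start site, matched 5 of the 7 genes, all but Cd6 and Lag3. The bases before the outermost annotated start are shown for these 5 genes, which were high together in the γδ+ libraries, each 5′ to 3′ on its own strand. Capitals mark CAGGTG or CAGCTG, the E-boxes that E proteins bind, and the RUNX motif TGTGGT, on either strand.
Cd5, chr19:10739003-10739224: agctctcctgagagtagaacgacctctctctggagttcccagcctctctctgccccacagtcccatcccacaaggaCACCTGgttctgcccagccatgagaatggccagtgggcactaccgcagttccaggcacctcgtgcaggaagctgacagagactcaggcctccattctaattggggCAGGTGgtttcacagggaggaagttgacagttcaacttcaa
Pdcd1, chr1:94052554-94052803: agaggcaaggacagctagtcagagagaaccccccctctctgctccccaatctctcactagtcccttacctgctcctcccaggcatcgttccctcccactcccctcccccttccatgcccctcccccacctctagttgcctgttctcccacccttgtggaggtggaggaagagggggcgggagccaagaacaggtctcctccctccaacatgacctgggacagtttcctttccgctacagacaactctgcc
Cd160, chr3:96829352-96829601: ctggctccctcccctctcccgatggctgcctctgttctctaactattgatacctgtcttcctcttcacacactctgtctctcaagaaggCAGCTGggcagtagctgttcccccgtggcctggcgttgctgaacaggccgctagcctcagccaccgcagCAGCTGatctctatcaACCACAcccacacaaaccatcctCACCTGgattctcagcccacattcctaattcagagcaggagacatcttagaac
Btla, chr16:45224087-45224314: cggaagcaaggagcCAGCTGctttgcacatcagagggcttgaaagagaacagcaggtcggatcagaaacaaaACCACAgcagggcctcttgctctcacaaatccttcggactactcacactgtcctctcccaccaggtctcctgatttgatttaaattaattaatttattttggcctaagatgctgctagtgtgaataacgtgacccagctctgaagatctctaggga
Izumo1r, chr9:14903950-14904017: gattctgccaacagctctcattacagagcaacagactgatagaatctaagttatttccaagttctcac
The stretches of Cd5, Cd160 and Btla held E-boxes and those of Pdcd1 and Izumo1r held none, while the whole window of Izumo1r, beyond the stretch shown, held 1 E-box and 1 RUNX motif. Cd160 had another RefSeq window, not shown, with 0 E-boxes and 1 RUNX motif. In whole windows of 300 bases, 32.9% of the 32851 RefSeq promoters held such an E-box and 16.8% the RUNX motif. The ETS core GGAAG was found in 71.4% of all promoters and in the windows of Cd5, Pdcd1, Cd160 and Btla, but not in that of Izumo1r. The EGR motif GCGNGGGCG, found in 5.55% of all promoters, was in none of the windows of the 5 genes. The half-site AGGTCA bound by NR4A and other nuclear receptors was in that of Pdcd1 and in 16.3% of all. No marked E-box overlapped a marked RUNX motif. These are letter matches and say nothing of binding.

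The plot of levels gives every gene in every library.

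**Figure D1:**
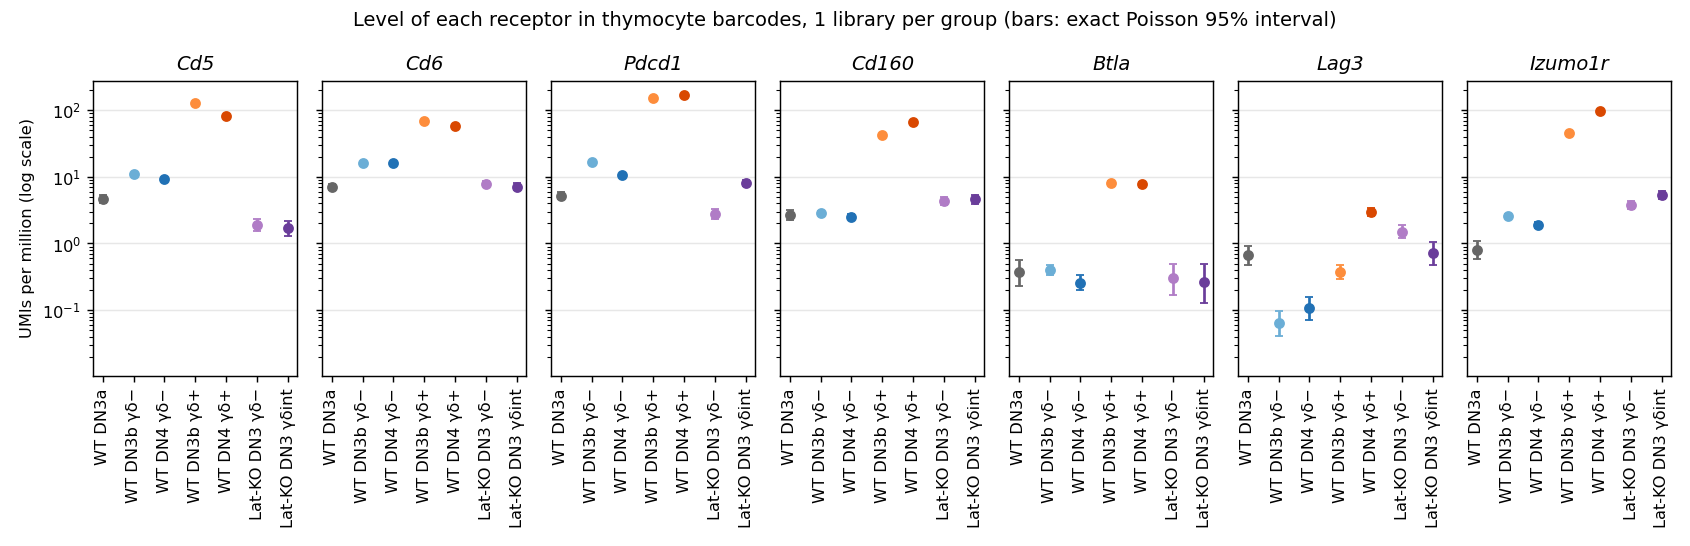
Level of each receptor transcript in CPM (log scale) in the thymocyte barcodes of the 7 libraries, 1 point per library, with exact Poisson 95% intervals. In 6 panels the WT DN3b γδ+ and DN4 γδ+ points lie above the other 5 libraries, while in the Lag3 panel WT DN3b γδ+ is at 0.373 and DN4 γδ+ at 2.95.

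Cd5 was highest in WT DN3b γδ+ (129.8 CPM) and DN4 γδ+ (82.3 CPM), followed by DN3b γδ− (10.9), DN4 γδ− (9.23) and DN3a (4.67), with Lat-KO γδ− and γδint at 1.91 and 1.69 CPM. The γδ+ libraries were high, the γδ− libraries after selection were intermediate and both Lat-KO libraries were the lowest, with overlapping intervals. The Cd5 level of Lat-KO γδint was not above that of its B-like barcodes, 2.30 CPM from 1 UMI (0.0581 to 12.8). It therefore cannot be told apart from free RNA. Cd6 followed a similar order in WT, with overlapping intervals for the γδ− libraries DN3b and DN4. It had 69.6 CPM in DN3b γδ+ and 57.3 in DN4 γδ+, then 16.2 and 15.9 in the DN3b and DN4 libraries that were γδ−, and 6.98 in DN3a. Cd6 was not lowest in Lat-KO, where γδ− had 7.95 and γδint 7.17 CPM. The B-like barcodes of γδint had 0 UMIs of Cd6, which allows up to 8.47 CPM. The intervals of WT DN3a and Lat-KO γδint overlapped, as did those of the Lat-KO libraries. Levels are compared between libraries for 1 gene at a time, because 3′ tag counts do not order different genes by abundance.

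Pdcd1 reached 151.5 CPM in WT DN3b γδ+ and 170.5 in DN4 γδ+, with 16.5 CPM in DN3b γδ−, 10.5 in DN4 γδ− and 5.25 in DN3a. Lat-KO γδ− had 2.78 CPM of Pdcd1 and γδint 8.17, a step between these libraries that Cd5 and Cd6 did not show. Their B-like barcodes had 0 UMIs of Pdcd1, which allows up to 5.11 and 8.47 CPM, above both levels, so the step is given as counts only. Cd160, a receptor known from cytotoxic lymphocytes, was at 2.70, 2.86 and 2.54 CPM in WT DN3a, DN3b γδ− and DN4 γδ−, at 43.1 in DN3b γδ+ and at 65.9 in DN4 γδ+. The Lat-KO libraries had 4.37 and 4.60 CPM of Cd160, and their B-like barcodes had 0 UMIs of it, which allows up to 5.11 and 8.47 CPM. Izumo1r reached 99.1 CPM in WT DN4 γδ+ and 46 in DN3b γδ+, with 2.57 CPM in DN3b γδ−, 1.89 in DN4 γδ− and 0.800 in DN3a. Lat-KO γδ− had 3.78 CPM of Izumo1r and γδint 5.42 (4.70 to 6.22). The Izumo1r level of Lat-KO γδint was not above that of its B-like barcodes, 9.19 CPM from 4 UMIs (2.50 to 23.5), and that of γδ− was close to it (2.77 CPM from 2 UMIs), so these levels are not read as expression in the thymocytes.

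Btla was scarce outside the γδ+ libraries. It was at 0.372, 0.402 and 0.259 CPM in WT DN3a, DN3b γδ− and DN4 γδ− and at 0.298 and 0.264 in the Lat-KO libraries, with 10 to 136 UMIs behind each value, against 8.19 CPM in DN3b γδ+ and 7.72 in DN4 γδ+. The intervals of neighbouring libraries overlapped throughout these 5, and those of the γδ+ libraries overlapped each other. Btla is also a gene of B cells, and B-like barcodes held 65.4 to 149 CPM of it in all 7 libraries. Cd74, a B cell gene that the barcode filter did not use, was at 11486 CPM in the B-like barcodes of WT DN3b γδ+ and at 6.79 CPM in its thymocyte barcodes, while Btla was at 65.4 and 8.19 CPM.

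Lag3 had the fewest UMIs and another order. Its level was 2.95 CPM in WT DN4 γδ+ (206 UMIs), followed by Lat-KO γδ− with 1.51 (76) and γδint with 0.714 (27). Below them came WT DN3a with 0.670 CPM (36), DN3b γδ+ with 0.373 (73), DN4 γδ− with 0.107 (26) and DN3b γδ− with 0.0650 (22). The intervals of Lat-KO DN3 γδint and WT DN3a overlapped, as did those of the lowest libraries, DN4 γδ− and DN3b γδ−. The level in WT DN3a was not above that of its B-like barcodes (1.88 CPM, 1 UMI). In every other library the B-like barcodes had 0 UMIs of Lag3, which allows 4.77 to 8.47 CPM, above the thymocyte level.

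Selection along the γδ path was addressed by comparing WT DN3b γδ+ with DN3a. Called here means at least 2-fold apart, among features with at least 10 UMIs in 1 of the 2 libraries. By this rule 6 of the 7 genes were higher in DN3b γδ+, where 13.6% of all features were, and none was lower (24.1% of all features). The log2 ratio was 5.85 for Izumo1r (95% interval 5.41 to 6.31), 4.85 for Pdcd1 (4.68 to 5.03), 4.80 for Cd5 (4.62 to 4.98), 4.46 for Btla, 4 for Cd160 (3.76 to 4.24) and 3.32 for Cd6 (3.17 to 3.47). Lag3 differed the other way, with a log2 ratio of -0.85 (-1.44 to -0.23), short of 2-fold. It was past 2-fold lower with the T cell marker rule and without mitochondrial and ribosomal-protein genes in the total. Lag3 gave 0.69 among non-cycling barcodes, those with fewer than 5 UMIs of 26 cell cycle genes. The other 6 genes stayed past 2-fold higher there, from 3.75 for Cd160 to 6.09 for Izumo1r. Pdcd1 gave 5.72 and Cd6 4.12 there, and with the B-like level subtracted Cd160 gave 3.31. The median over all features was -0.22. Cd5, Cd6 and Pdcd1 belong to the signature of γδ TCR induction that the study chose on these libraries, so their direction here is no independent evidence. All 7 genes were chosen with earlier results of these data known, so the count of 6 is not independent either.

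The path without a surface γδ TCR shared part of this. In DN3b γδ− against DN3a, 4 genes were higher (10.4% of all features) and 1 was lower (25.7%). The log2 ratios were 1.69 for Izumo1r, 1.65 for Pdcd1, 1.22 for Cd5 and 1.21 for Cd6, while Cd160 and Btla gave 0.09 (-0.17 to 0.35) and 0.11 (-0.57 to 0.87). In non-cycling barcodes Cd5 gave 0.27 and Cd6 0.19, so both calls were lost, while Izumo1r gave 1.95 and Pdcd1 1.60. The DN3b γδ− side of these held 10, 16, 8 and 20 UMIs in that order. After the level of B-like barcodes was subtracted Izumo1r gave 0.68, short of 2-fold. The level subtracted was 1 UMI in DN3b γδ− (1.29 CPM, 0.0328 to 7.21) and 0 UMIs in DN3a, so this value does not decide the call. Cycling barcodes made up 98% of DN3b γδ− and 15.7% of DN3a, which were sorted apart by CD71. Lag3 gave -3.37 (-4.20 to -2.56) by counts, from 22 and 36 UMIs. Its DN3a level was not above that of the B-like barcodes, so this too is not read as a difference in expression, and with a minimum of 50 UMIs it was not called. This was the only called ratio that turned sign under an alternative. Among non-cycling barcodes the DN3b γδ− library had 0 UMIs of Lag3 in 355 barcodes, and the value of 0.40 obtained there rests on the floor of 3 counts put in their place. Btla also had 0 UMIs there, so its value of 2.21, past 2-fold only through the floor, is not read as higher.

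Between the DN3b libraries all 7 genes were higher in γδ+ (11.5% of all features) and none lower (7.77%). The study chose its signature, with Cd5, Cd6 and Pdcd1 in it, on this contrast, so the direction of these 3 was fixed by that choice and nothing is read from it. All 7 genes were chosen with earlier results of these data known, so the count of 7 is no independent evidence either. The log2 ratios ran from 2.11 for Cd6 (2.06 to 2.15) through 2.52 for Lag3 (1.82 to 3.28), 3.20 for Pdcd1, 3.57 for Cd5 (3.52 to 3.62), 3.91 for Cd160 and 4.16 for Izumo1r to 4.35 for Btla (4.10 to 4.61). As folds these were 4.31-fold for Cd6, 11.9-fold for Cd5 and 20.4-fold for Btla. In non-cycling barcodes, under 4% of each library, the log2 ratios were 5.11 for Cd5, 4.12 for Pdcd1 and 3.93 for Cd6. The DN3b γδ− side of these held 10, 20 and 16 UMIs. Btla had 18 and 0 UMIs there, so its 2.46 against the floor of 3 counts is a lower limit, and Lag3 had 4 and 0 UMIs and 0.29 against that floor, so its call was lost. Between the DN4 libraries all 7 were again higher in γδ+, where 25.8% of all features were higher and 12.2% lower, with log2 ratios from 1.84 for Cd6 to 5.71 for Izumo1r, and from 1.40 to 3.51 for the same genes in non-cycling barcodes. There Cd160 gave 1.72 in place of 4.70, Lag3 2.15 in place of 4.79 and Btla 2.32 in place of 4.90. The DN4 γδ− side of these held 2 UMIs of Lag3 and 4 of Btla. Several of these comparisons share a library, so their values stand side by side and are not counted as separate evidence.

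**Figure D2:**
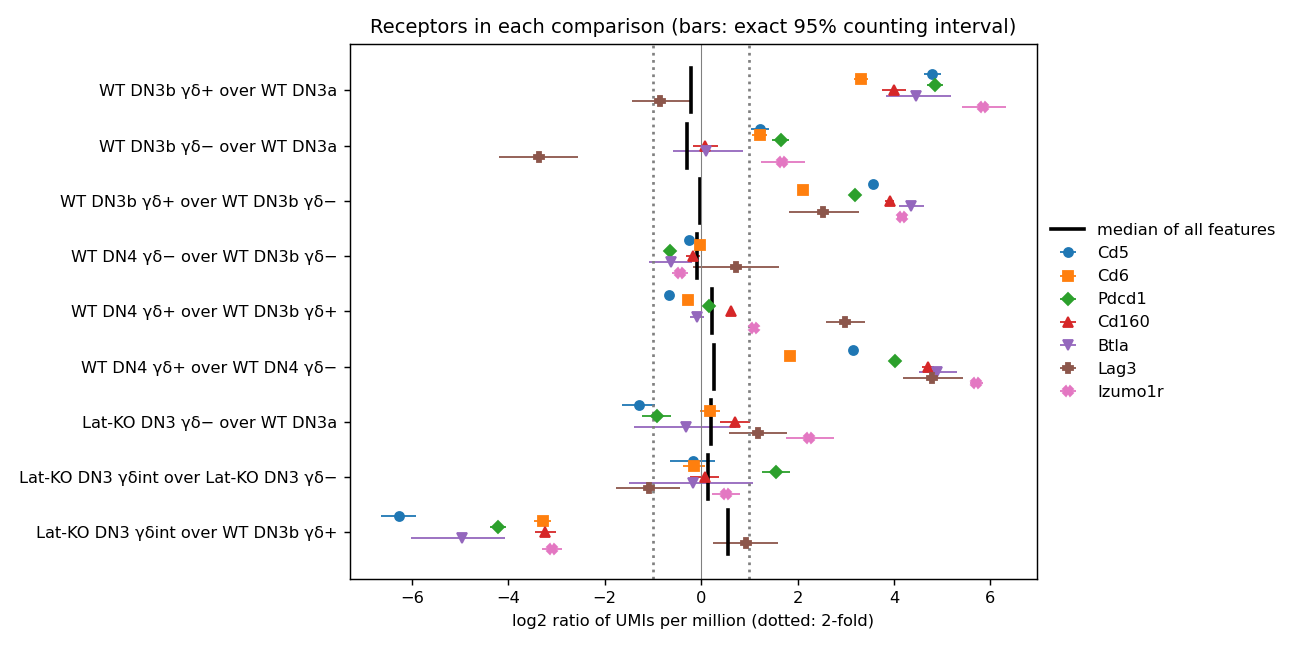
Log2 ratio of the CPM of each receptor in the 9 comparisons, with exact 95% counting intervals, the median of all features as a black bar and 2-fold as dotted lines. In both γδ+ over γδ− comparisons all 7 points lie past the 2-fold line, between 2.11 and 4.35 for DN3b and between 1.84 and 5.71 for DN4.

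From DN3b to DN4 the genes parted on the γδ+ side. Lag3 was higher in DN4 γδ+ by 2.98 on the log2 scale (2.59 to 3.39), Izumo1r by 1.11 (1.06 to 1.15) and Cd160 by 0.61 (0.56 to 0.67), Pdcd1 gave 0.17 and Btla -0.09 (-0.23 to 0.06), and Cd5 and Cd6 were lower, at -0.66 (-0.70 to -0.62) and -0.28. Hence 2 genes were past 2-fold higher, where 21% of all features were, and none past 2-fold lower (8.5%). The Lag3 levels, 2.95 and 0.373 CPM, lay under what the B-like barcodes allow in DN4 γδ+ and DN3b γδ+ (0 UMIs, up to 5.71 and 6.70 CPM). With the B-like level subtracted, Cd160 gave 1.23 and 3 of the 6 genes left with a ratio were past 2-fold higher. The median of all features was 0.23. In non-cycling barcodes, 26% of DN4 γδ+ and 96.7% of DN3b γδ+ being cycling, Lag3 gave 1.21 from 4 UMIs in DN3b γδ+ and Izumo1r 0.76, so the Izumo1r call was lost. With TMM scaling, a library factor that centres most genes, the Izumo1r ratio was 0.80 and that of Pdcd1 turned to -0.13, and the median of all features moved to -0.07. In DN4 γδ− against DN3b γδ− no gene passed 2-fold in either direction (8.83% of all features higher, 4.31% lower). There Pdcd1 was lower by -0.65 on the log2 scale (-0.71 to -0.58), Izumo1r by -0.44 and Cd5 by -0.24, and Lag3 gave 0.72 (-0.16 to 1.61). With the B-like level subtracted, Izumo1r turned to 0.56 and Cd5 to 0.14. The B-like barcodes of DN4 γδ− and DN3b γδ− held 0 and 1 UMIs of Izumo1r and 1 and 3 of Cd5, so nothing is read from these turns. Among the 334 and 355 non-cycling barcodes of these libraries, under 3% of each, 5 genes were past 2-fold higher in DN4 γδ−, with log2 ratios of 3.05 for Cd160, 2.19 for Cd5, 1.97 for Pdcd1, 1.84 for Cd6 and 1.39 for Izumo1r. These rested on 52 and 6 UMIs for Cd160, 48 and 10 for Cd5 and 82 and 20 for Pdcd1. For Cd6 they were 60 and 16 and for Izumo1r 22 and 8. The share of all features past 2-fold was not computed in these barcodes, where the median of all features was -0.07.

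The role of LAT was addressed with the Lat-KO libraries. Against WT DN3a, Lat-KO DN3 γδ− had a lower Cd5 (-1.29 on the log2 scale, -1.65 to -0.95) and a higher Izumo1r (2.24, 1.75 to 2.75) and Lag3 (1.17, 0.58 to 1.79), so by counts 2 genes were past 2-fold higher (6.49% of all features) and 1 lower (4.91%). Pdcd1 was past 2-fold lower as well, making 2 lower genes, with TMM factors (-1.08), at 0 B cell UMIs, without the quality filter and without mitochondrial and ribosomal-protein genes in the total. The Cd5 level of Lat-KO DN3 γδ−, 1.91 CPM, was not clearly above its B-like barcodes (1.38 CPM from 1 UMI, up to 7.71), and with the B-like level subtracted the Cd5 ratio was -2.41. Both of the higher genes involve levels not clearly above B-like barcodes, those of Izumo1r in Lat-KO and of Lag3 in WT DN3a, so neither is read as a difference in expression. In non-cycling barcodes Cd5 gave -0.82, Lag3 0.90 and Pdcd1 -0.06, so the calls of Cd5 and Lag3 were lost. Pdcd1 gave -0.92, Cd160 0.70, Cd6 0.19 (-0.02 to 0.40) and Btla -0.32 (-1.39 to 0.72). The Izumo1r ratio rested on 190 and 43 UMIs. It was 0.33 after the level of B-like barcodes was subtracted, where 2 and 0 UMIs were found. Between the Lat-KO libraries, DN3 γδint had a higher Pdcd1 by 1.55 on the log2 scale (1.26 to 1.85) and a lower Lag3 (-1.08, -1.77 to -0.43), against 5.98% and 5.85% of all features. Their B-like barcodes had 0 UMIs of Pdcd1 and Lag3, which allows up to 5.11 CPM in γδ− and 8.47 in γδint, above the levels of both genes. The other 5 genes lay between -0.17 and 0.52. The share of cycling barcodes was 60.6% in DN3 γδint and 18.6% in DN3 γδ− with at least 5 UMIs of the cycle genes, 83.3% and 45.7% with at least 3, and 33% and 6.76% with at least 10. Among non-cycling barcodes the log2 ratio was 0.74 for Pdcd1 and -0.83 for Lag3, so both calls were lost, while Btla gave -1.87 from 1 and 13 UMIs.

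Set against WT DN3b γδ+, Lat-KO DN3 γδint was lower in 6 of the 7 genes (11.3% of all features) and higher in none past 2-fold (31.4%). Pdcd1 was lower by 18.5-fold, Cd6 by 9.72-fold and Cd160 by 9.37-fold. With the B-like level subtracted, their log2 ratios were -3.86, -3.03 and -2.54. On the Lat-KO side 0 was subtracted, as its B-like barcodes had 0 UMIs of these genes, which allows up to 8.47 CPM. The levels of Pdcd1, Cd6 and Cd160 in Lat-KO γδint lay under that limit, so their folds are ratios of counts. The counts of Cd5 and Izumo1r gave ratios of 76.7-fold and 8.49-fold, but their levels in Lat-KO γδint were not above its B-like barcodes, so these are ratios of counts and not measures of how far expression differed. Btla, at 10 UMIs in Lat-KO γδint, was lower by 31-fold, and its B-like barcodes offer no background for it. Lag3 gave 0.94 (0.24 to 1.59), and -0.62 in non-cycling barcodes. It was past 2-fold higher with the T cell marker rule and without the quality filter. The median of all features was 0.55, and TMM scaling moved it to -0.19.

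The share of barcodes with a UMI was higher in both γδ+ libraries than in the other 5 for 6 of the 7 genes, Lag3 being the exception. At 4000 UMIs, Pdcd1 was detected in 43.3% of DN3b γδ+ barcodes and 38.9% of DN4 γδ+ barcodes, against 1.44% in DN3a, 6.21% in DN3b γδ− and 4.28% in DN4 γδ−, and 0.898% and 2.53% in the Lat-KO libraries. The order of its γδ+ shares was thus the reverse of that of its CPM, so no order between these libraries is read from the Pdcd1 shares. Cd5 was detected in 38.6% and 22.7% of the γδ+ barcodes and in 0.595% to 3.85% elsewhere, and Cd6 in 24.5% and 18.6% against 2.01% to 5.80%. Cd160 was found in 14.4% and 16.9% of the γδ+ barcodes (1.01% to 1.74% elsewhere), Izumo1r in 13.6% and 19.8% (0.340% to 1.72%), Btla in 3.39% and 2.39% (0.0661% to 0.164%) and Lag3 in 0.157% and 1.12% (0.034% to 0.735%). For Cd160 the B-like barcodes of DN3b γδ+, also at 4000 UMIs, gave 8.16% of 49 (2.27 to 19.6). This interval holds the thymocyte share of 14.4%, so these few barcodes do not separate the shares at this depth. By CPM the intervals did not overlap, with 43.1 (42.2 to 44.0) in thymocyte and 16.4 (7.48 to 31.1) in B-like barcodes of DN3b γδ+. In DN4 γδ+ the B-like barcodes gave a Cd160 share of 1.75% of 57 (0.0444 to 9.39). Without thinning, 74.7% of DN3b γδ+ barcodes had a UMI of Pdcd1 and 70.1% one of Cd5, at a median of 15392 UMIs. B-like barcodes, which should lack both Pdcd1 and most Cd5, served as a measure of free RNA. In WT DN3b γδ+, 10.8% of 158 B-like barcodes had Pdcd1 and 8.23% had Cd5 at a median of 3434 UMIs, and in Lat-KO DN3 γδint 0 of 162 had Pdcd1, which allows a share of up to 2.25%. Izumo1r was found in 1.23% of those 162 B-like barcodes (0.150 to 4.39), at a median of 2458 UMIs, and in 3.30% of the thymocyte barcodes of that library, at a median of 5738, so this share is within the range of free RNA. The Lag3 shares of 0.034% in DN3b γδ− and 0.0508% in DN4 γδ− rest on few barcodes and are not read as expression.

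Barcodes of the γδ+ libraries often held several of these transcripts. At least 1 of the 7 was detected in 77.0% of DN3b γδ+ barcodes (95% interval 76.2 to 77.8) and 68.7% of DN4 γδ+ barcodes, and in 5.99% to 16.1% of the other libraries, the most in DN3b γδ−. At least 3 were detected in 1628 of 10851 DN3b γδ+ barcodes (15%) and in 935 of 6934 DN4 γδ+ barcodes (13.5%). Elsewhere such barcodes were rare. The count was 21 of 17673 in DN3b γδ−, 21 of 11815 in DN4 γδ−, 1 of 6462 in DN3a, 1 of 6125 in Lat-KO γδ− and 0 of 4537 in Lat-KO γδint, which allows a share of up to 0.0813%.

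**Figure D3:**
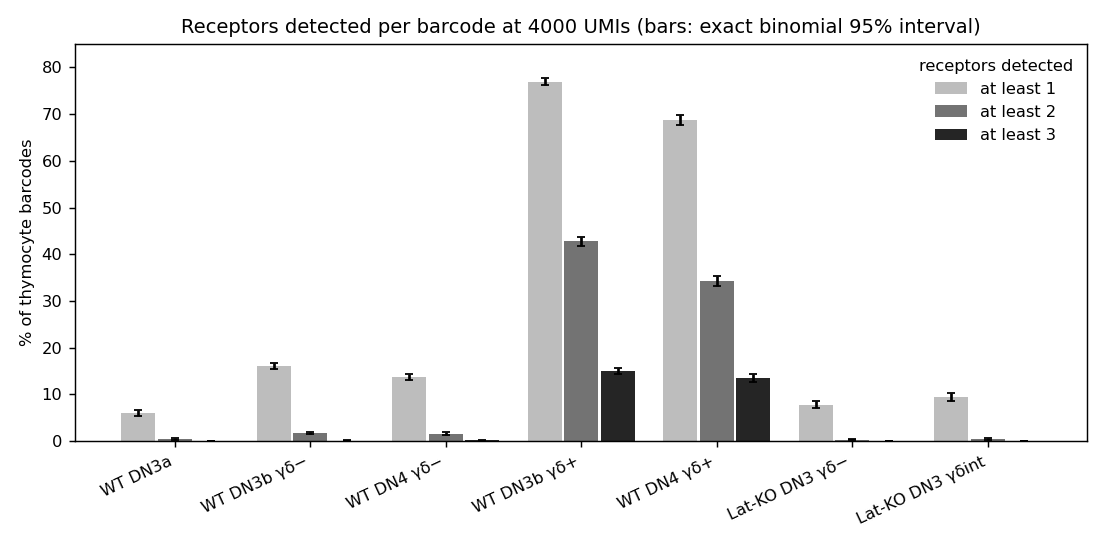
Percent of thymocyte barcodes with at least 1, 2 or 3 of the 7 receptor transcripts at 4000 UMIs, by library, with exact binomial 95% intervals. The bars of WT DN3b γδ+ (77.0%, 42.8% and 15%) and DN4 γδ+ (68.7%, 34.3% and 13.5%) stand above those of the other 5 libraries, of which none passes 16.1%.

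Within DN3b γδ+, detection of 1 gene together with another was mostly near the product of their shares. Cd5 and Pdcd1 were found together in 2001 barcodes, 1.10 times the product of their shares, and Cd5 and Cd6 in 1219, 1.19 times the product (1.13 to 1.25). The highest ratio among pairs with at least 10 joint barcodes was that of Cd160 and Izumo1r, 1.37 (1.22 to 1.54). In DN4 γδ+ the ratios of several pairs were higher. Cd160 and Lag3 were found together in 40 barcodes, 3.03 times the product (2.17 to 4.13), Btla and Izumo1r 1.73 times (1.31 to 2.24), Cd5 and Cd6 1.42 times, Cd160 and Izumo1r 1.42 times and Cd5 and Pdcd1 1.17 times. In DN3a, where the transcripts were rare, Cd5 and Pdcd1 were found together in 11 barcodes, 9.93 times the product (4.96 to 17.7). These ratios are descriptions of cells from 1 library each. The more often a gene is detected, the lower the highest ratio it can reach. Unlike ratios in libraries with unlike shares are therefore not read as a difference in how the genes go together.

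Some DN3a barcodes with Cd5 or Pdcd1 also held UMIs of signal genes. Nab2, a partner of the EGR factors, had a UMI in 68 DN3a barcodes, of which 19.1% had Cd5 and 19.1% had Pdcd1, against 1% and 1.25% of the barcodes without Nab2. With Cd69, an activation marker, 1.33% of 1350 barcodes had Cd5 (0.792 to 2.10), against 1.15% of the rest, and the intervals overlapped. With a UMI of Nr4a1, an immediate target of TCR signals, 7.79% of 231 barcodes had Cd5 (4.68 to 12), against 0.947% of the rest. Izumo1r and Lag3 were in none of the 231 barcodes with Nr4a1, which allows a share of up to 1.58% at the upper exact limit.

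Within DN3b γδ+, barcodes were grouped by their Cd5 UMIs. Nr4a1 was detected in 23.2% of the 6667 barcodes with 0 UMIs of Cd5, 30.5% of the 2838 with 1, 32.7% of the 1009 with 2 and 40.1% (34.8 to 45.5) of the 337 with 3 or more. Egr1 went from 16.5% to 28.8%, Nab2 from 12.8% to 22.0%, Egr3 from 3.40% to 10.7%, Cd6 from 21.6% to 35.6% and Pdcd1 from 40.5% to 50.7% between the outer groups. Izumo1r was at 13%, 14.8%, 15.1% and 11.3% (8.10 to 15.1) and Cd160 at 13.6% to 16%, so neither separated the outer groups beyond counting error. In DN4 γδ+ the pattern was wider. Cd160 was in 14.9% of barcodes without Cd5 and 29.3% (20.6 to 39.3) of the 99 with 3 or more UMIs, Izumo1r in 17.6% and 29.3%, Cd6 in 16.4% and 34.3%, and Nab2 in 7.13% and 22.2%. Myb went the other way there, from 50.5% to 36.4%, and Cd69 was at 45.9% and 40.4%.

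**Figure D4:**
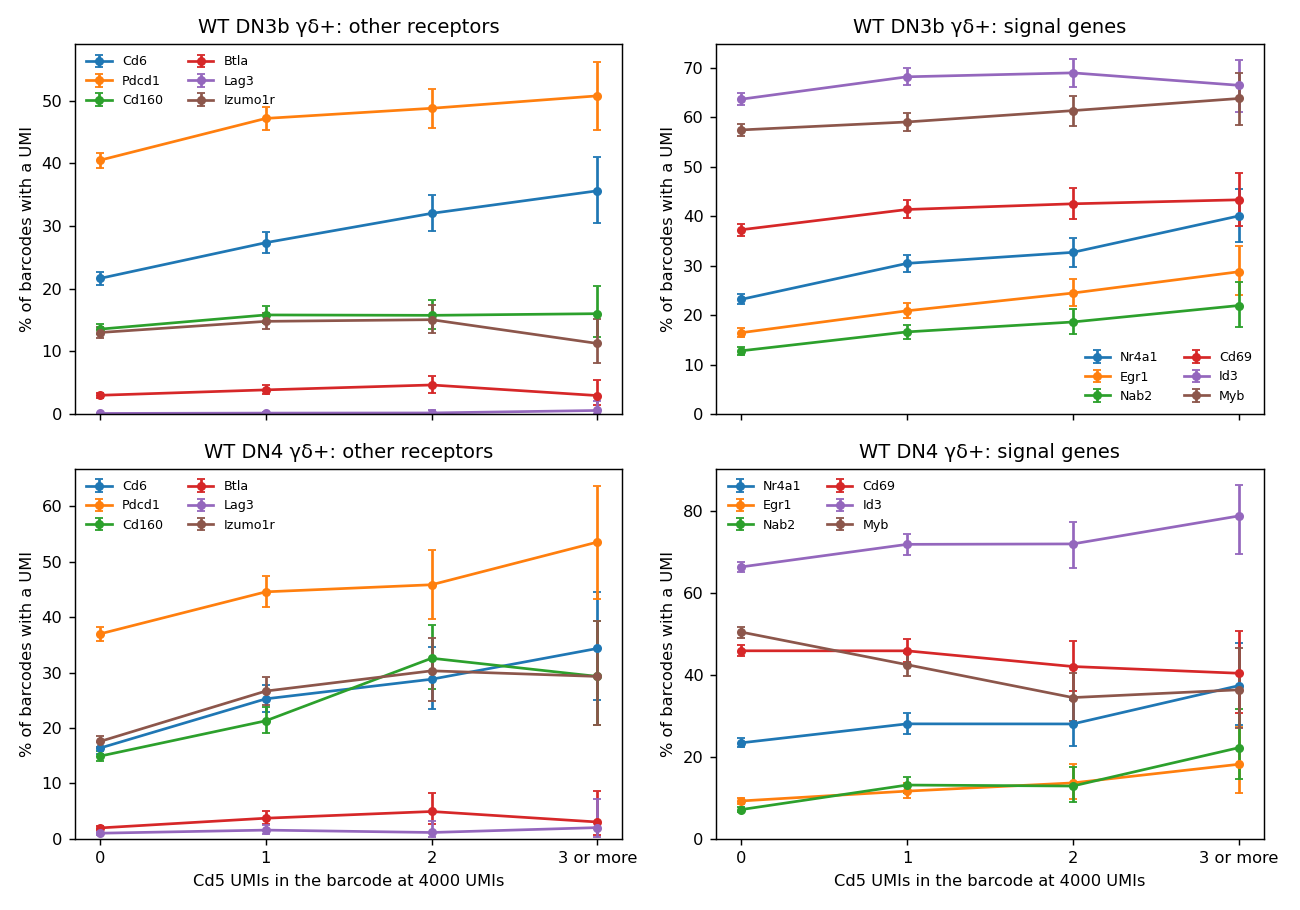
Percent of barcodes with a UMI of each of the other 6 receptors (left) and of 6 signal genes (right) against the number of Cd5 UMIs in the barcode, at 4000 UMIs, with exact 95% intervals, for WT DN3b γδ+ (top) and DN4 γδ+ (bottom). Cd6, Pdcd1, Nr4a1, Egr1 and Nab2 are higher at 3 or more Cd5 UMIs than at 0 in both libraries, while Myb declines in DN4 γδ+ from 50.5% to 36.4%.

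DN4 γδ+ cells diversify into subsets, and the 7 genes were split by 7 genes that mark them. A UMI of such a marker can also come from free RNA, and the share of B-like barcodes with each marker was not computed. Trdc, the gene for the TCR δ constant region, was in 36.8% of 57 B-like barcodes of this library at 4000 UMIs. Maf and Sox13 encode factors of the IL-17-producing subset. Of the 3132 barcodes with Maf, 6.77% had Cd160, 12.9% Izumo1r, 14.8% Cd5, 33.2% Pdcd1 and 14.3% Cd6, against 25.2%, 25.5%, 29.2%, 43.5% and 22.3% of the 3802 without it. With Sox13, Cd160 was in 6.92% of barcodes and Lag3 in 0.224%, against 25.1% and 1.86% without it, and Pdcd1 differed less, with 36.6% and 40.7%. Barcodes with Il2rb, a cytokine receptor chain of the interferon-γ and NK-receptor subset, had Cd160 in 40.3% and Lag3 in 3.70%, against 11.5% and 0.532% of those without it. Zbtb16 encodes PLZF, the factor of innate-like lymphocytes. Its 149 barcodes had Izumo1r in 64.4% (against 18.8%), Pdcd1 in 61.1% (38.4%), Cd160 in 41.6% (16.4%), Cd6 in 32.9% (18.3%) and Btla in 10.1% (2.23%).

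S1pr1, the receptor that guides cells out of the thymus, split the genes in opposite ways. Its 1358 barcodes had Pdcd1 in 29.7% against 41.1% of the others, and Cd160 in 22.8% against 15.5%, Cd6 in 22.3% against 17.8% and Btla in 3.61% against 2.10%. Gzma, a granzyme transcript found in most DN4 γδ+ barcodes, went with a lower share of Cd160 (11.5% against 29.8%) and of Cd5 (19.9% against 29.4%), and Pdcd1 was at 38.0% and 41.0%. With Ikzf2, Cd160 was in 18.2% of barcodes and in 11.4% without it. Over all DN4 γδ+ barcodes the Cd160 share was 16.9%, nearer the first value, so Ikzf2 too was found in most of them.

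**Figure D5:**
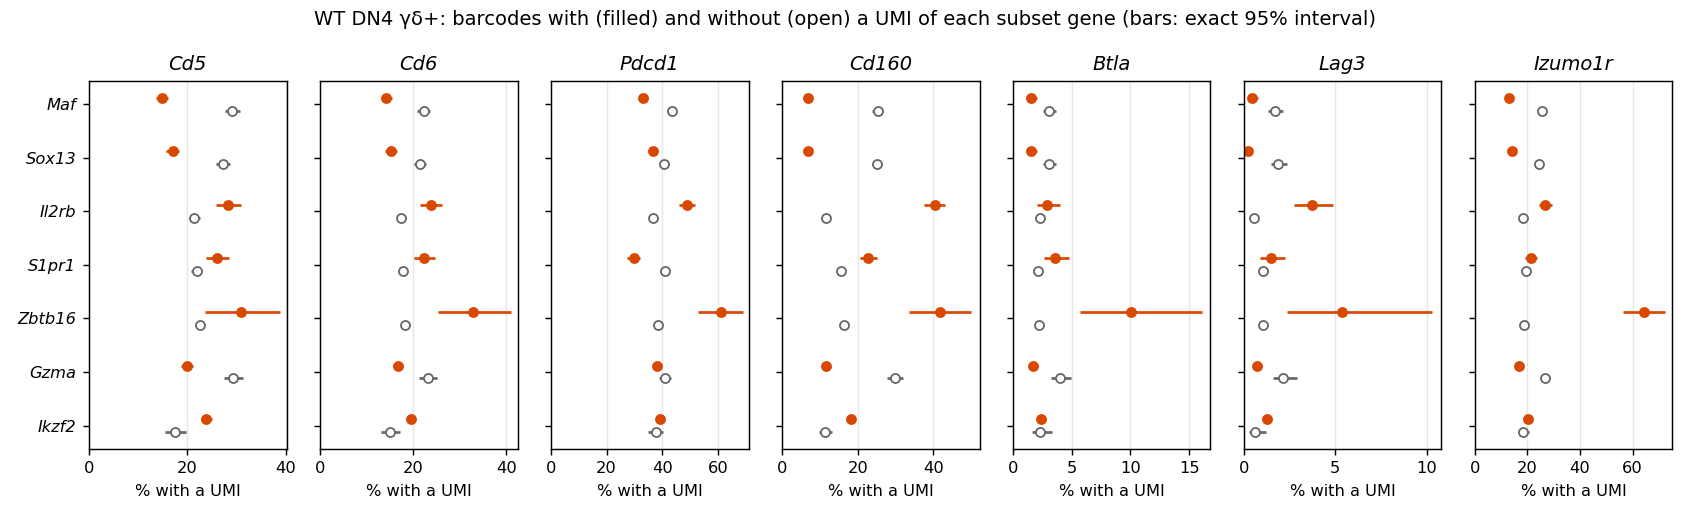
Percent of WT DN4 γδ+ barcodes with a UMI of each receptor, among barcodes with (filled) and without (open) a UMI of each of 7 subset genes, at 4000 UMIs, with exact 95% intervals. Filled Maf and Sox13 points lie left of the open ones for all 7 receptors, and the filled Zbtb16 point of Izumo1r is at 64.4%.

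The split by subset gene was already visible in DN3b γδ+ for some genes, where few barcodes held them. Of the DN3b γδ+ barcodes with Zbtb16, 62.1% had Pdcd1 and 28.7% had Izumo1r, against 43.2% and 13.5% of those without it. Il2rb barcodes had Izumo1r in 25.2% and Cd160 in 22.5%, against 13.3% and 14.2%. B-like barcodes were not split this way, so these shares have no background of free RNA beside them.

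Cell cycle state moved with some of the values. Barcodes with at least 5 UMIs of 26 cycle genes at 4000 UMIs made up 15.7% of DN3a, 26.0% of DN4 γδ+ and 96.7% to 98.0% of the other WT libraries. With at least 3 UMIs DN3a had 41.1% and DN4 γδ+ 42.5%, and with at least 10 they had 4.49% and 17.5%. In DN3a, Cd5 was in 2.96% of cycling and 0.863% of other barcodes and Pdcd1 in 4.54% and 0.863%. Over rising cycle UMIs in Lat-KO DN3 γδint, Pdcd1 was in 0.875%, 1.38%, 1.68%, 4.44% and 4.97% of barcodes with 0 to 1, 2 to 4, 5 to 9, 10 to 19 and 20 or more, while Cd5 stayed between 0.462% and 1.46%. In DN4 γδ−, the 334 non-cycling barcodes had Pdcd1 in 10.2% and Cd5 in 7.49%, above the cycling barcodes (4.11% and 3.32%). In DN3b γδ+ Cd5 was in 38.7% of cycling and 33.6% of other barcodes. In DN4 γδ+ Pdcd1 was in 47.6% of cycling and 35.8% of other barcodes, and Cd5 in 28.8% and 20.6%. Izumo1r was in 26.0% and 17.6% there and Cd160 in 22.1% and 15.1%, while the intervals of Cd6, Btla and Lag3 overlapped. Cycling barcodes made up 19.6% of DN4 γδ+ barcodes with 0 of the receptors and 40.1% of those with 3 or more. The part of cycling in the joint detection, Cd5 groups and subset-gene splits of DN4 γδ+ was not tested. Between 245 and 958 barcodes per library lay next to the cut.

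The same comparisons were read over the genes around these receptors. The lists of these genes were chosen with earlier results of these data known, so counts within them are no independent evidence. Of 12 signal genes, which TCR engagement is known to move, 11 were higher in DN3b γδ+ than in DN3b γδ− (11.5% of all features), with log2 ratios of 7.03 for Egr3, 3.37 for Nr4a1 and 2.78 for Nab2, and Myb (0.18) was the exception. In Lat-KO DN3 γδint against DN3b γδ+, 9 of the 12 were lower (11.3% of all features), Nr4a1 by 6.71 on the log2 scale (a ratio of -6.71), and Myb was higher (1.09). Of 8 ligand genes, 6 had enough UMIs and 5 of them were higher in DN3b γδ+ than in DN3b γδ− (11.5% of all features). Pdcd1lg2, which encodes the PD-1 ligand PD-L2, was at 0.534 CPM in DN3b γδ− and 13.4 in DN3b γδ+, and at 6.56 in DN4 γδ+ and 0.106 in Lat-KO DN3 γδint, the same order of libraries as Cd5, with 4 to 10 UMIs behind the values of DN3a and Lat-KO. Cd274, for PD-L1, was at 1.95 to 8.92 CPM in all 7 libraries, and Tnfrsf14, for HVEM, at 0.404 to 2.08 CPM with the highest level in DN3a. Fgl1, a LAG-3 ligand, had at most 1 UMI per library.

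Of 15 genes for enzymes and adaptors that work with these receptors, 4 were higher in DN3b γδ+ than in DN3b γδ− (11.5% of all features) and none was lower (7.77%). These numbers are too small to set apart from those shares. The median log2 ratio of the 15 genes was 0.47, against -0.03 over all features. Dok2, an adaptor that dampens RAS signalling, had 95.4 CPM in DN3b γδ+ and 22.0 in DN3b γδ−, Ubash3b, a phosphatase gene, 5.93 and 1.24, and Cblb, a ubiquitin ligase gene, 44.1 and 15. Ptpn6, for the phosphatase SHP-1, had 163 and 88.7 CPM. Of 15 other inhibitory receptor genes 11 could be compared, of which 3 were higher and 1 lower, numbers too small to set apart from the 11.5% and 7.77% of all features. Ctla4 was the lower one. It had 95.2 and 70.9 CPM in Lat-KO γδ− and γδint, 69.7 in WT DN3a, 22.0 in DN3b γδ−, 11.5 in DN4 γδ−, and 4.21 and 4.55 CPM in the γδ+ libraries DN3b and DN4, so it was low where Cd5 was high. From DN3b γδ+ to DN4 γδ+, 7 of 13 other inhibitory receptor genes were higher past 2-fold (21% of all features) and 2 lower (8.5%), among them Vsir (4.12 to 26.1 CPM), Cd200r1 (0.822 to 6.29) and Pecam1 (31.2 to 74.8).

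The genes with the most similar course over the 7 libraries were taken from 6934 genes of at least 20 CPM in 1 library, by the root mean square difference of centred log2(CPM + 1). They were Rapsn (0.36), Mpp4 (0.36) and Nab2 (0.51) for Cd5, Lcp1 (0.33), Gm45716 (0.33) and Tpm4 (0.35) for Cd6, and Ccr7 (0.42), Rapsn (0.43) and Etv5 (0.46) for Pdcd1. For Cd160 they were Pacsin1 (0.40), Tnfrsf9 (0.42) and Chn2 (0.43), and for Izumo1r they were Cd160 (0.46), Xcl1 (0.58) and Chn2 (0.61). Btla and Lag3 are so low that the added 1 flattens their course, and the genes nearest to them, Rbpms (0.27) and Furin (0.11), say little.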

How the data were processed

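Single-cell RNA from 7 sorted mouse thymocyte libraries was analysed from the deposited UMI count matrices, which the authors made with Cell Ranger on mm10 with an added reporter feature. The matrix headers name version 4.0.0 and the submitters' processing notes 5.0.1, with R 3.6.3 and Seurat 3.1.5. The deposited counts are raw and were not normalised. The kit counts 1 tag at the 3′ end of a transcript.

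Barcodes were filtered as stated in the report, and counts were summed per library and scaled to CPM. B-like barcodes, with at least 10 UMIs of B cell genes and few of T cell genes, served as a measure of free RNA. Their median was 2324 to 3436 UMIs, below that of the thymocyte barcodes in every library. Their CPM therefore need not match the level of free RNA in thymocyte barcodes. Intervals are 95% exact Poisson, Clopper-Pearson, or conditional binomial for ratios, and a library with 0 counts was set to a floor of 3 counts in ratios. With 1 library per group no p-value was computed. Shares used barcodes with at least 4000 UMIs, thinned to that number (seed 1), which left out 343 to 1769 barcodes per library. No doublet caller was run. The genes named are the 7 receptors, their most similar genes, and members of lists of signal genes, ligands, partners, other inhibitory receptors and subset genes, with examples. A subset gene of the original list is not reported here. The receptors and lists were chosen with earlier results of these data known. Total thymocyte UMIs per library ranged from 37820685 to 338698944. Alternatives were other B cell and T cell filters, depths, folds, minimum counts, TMM factors, subtraction of the B-like level, non-cycling barcodes and removal of barcodes with over 2 times the median UMIs. The code was tested on simulated data. Python 3.11.15 with numpy 2.4.6, pandas 2.3.3 and scipy 1.17.1, matplotlib 3.10.9, and R 4.3.3 with edgeR 4.0.16 (TMM factors only) were used.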

Additional observations from a re-analysis of the deposited data

Results flagged for a closer look

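From DN3b to DN4, 3 receptors gave a log2 ratio above 0 on the γδ+ side and below 0 on the γδ− side, with 1 library behind each value. Of the 6 values only that of Izumo1r on the γδ+ side was past 2-fold, and Pdcd1 on that side was below the median of all features (0.23). The log2 ratio of DN4 over DN3b was 1.11 for Izumo1r among γδ+ and -0.44 among γδ−, 0.61 against -0.17 for Cd160, and 0.17 against -0.65 for Pdcd1. The difference between the sides was not tested. With the B-like level subtracted the γδ− value of Izumo1r was 0.56, where the B-like barcodes of DN4 and DN3b held 0 and 1 UMIs of it. With TMM scaling the γδ+ value of Pdcd1 was -0.13, and among non-cycling barcodes the γδ− values turned to 1.39, 3.05 and 1.97 for Izumo1r, Cd160 and Pdcd1, above the γδ+ values of 0.76, 0.88 and 0.27 there. Those γδ− values rested on 8, 6 and 20 UMIs in DN3b γδ−.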

How the results depend on the processing

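The number of the 7 receptors past 2-fold, in either direction, stayed between 5 and 7 under the alternatives run for DN3b γδ+ over DN3a (6 as reported). Each 7 there was 6 higher and 1 lower, the lower one being Lag3. The number stayed between 6 and 7 for DN3b γδ+ over DN3b γδ− and DN4 γδ+ over DN4 γδ− (7 each). With a 1.5-fold limit it was 5 in place of 3 for Lat-KO γδ− over DN3a, 4 in place of 2 for DN4 over DN3b γδ+ and 3 in place of 0 for DN4 over DN3b γδ−. With a 4-fold limit it was 1, 1 and 1 for Lat-KO γδ− over DN3a, DN3b γδ− over DN3a (5 at 2-fold) and DN4 over DN3b γδ+, and 0 for Lat-KO γδint over γδ− (2 at 2-fold). After subtraction of the B-like level it was 1 for Lat-KO γδ− over DN3a, 3 for DN3b γδ− over DN3a, 3 in place of 2 for DN4 over DN3b γδ+ and 3 in place of 6 for Lat-KO γδint over DN3b γδ+, where receptors at or under the B-like level gave no ratio. In non-cycling barcodes it was 1, 1 and 1 for Lat-KO γδ− over DN3a, Lat-KO γδint over γδ− (Btla, from 1 and 13 UMIs, in place of Pdcd1 and Lag3) and DN4 over DN3b γδ+, 3 for DN3b γδ− over DN3a, of which Btla had 0 UMIs in DN3b γδ− and passed only through the floor, and 5 for DN4 over DN3b γδ−. It was 1 for DN4 over DN3b γδ+ with TMM factors and without barcodes over 2 times the median UMIs, 1 for Lat-KO γδint over γδ− with the T marker rule, and 1 for DN4 over DN3b γδ− at 0 B cell UMIs. The share of all features past these other limits, or under these alternatives, was not computed. The causes were not tested.

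The Lag3 ratio of DN3b γδ− over DN3a turned from -3.37 to 0.40 in non-cycling barcodes, where 0 UMIs in DN3b γδ− were set to the floor of 3 counts, so that value is an upper limit. Over all receptors, comparisons and alternatives, 358 log2 ratios stayed within the counting interval of the reported value, 128 moved out of it and 1 that was past 2-fold changed sign. Ratios short of 2-fold that changed sign, such as Pdcd1 for DN4 over DN3b γδ+ with TMM and 6 receptors for DN4 over DN3b γδ− in non-cycling barcodes, are counted with the first and second of these. TMM factors moved the median of all features by over 0.1 in 7 of the 9 comparisons, the most in Lat-KO γδint over DN3b γδ+ (0.55 to -0.19), and in DN3b γδ+ over DN3a from -0.22 to 0.11. No paired analysis was possible because each group was 1 library. Outside γδ+, Lag3 and Btla rest on 10 to 136 UMIs per library, and Cd5 in Lat-KO on 64 and 96.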
